A study of Mus musculus with 32 samples.

Results

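Transcripts of the nitric oxide and cyclic GMP signalling pathway were followed by RNA sequencing of whole lungs from C57BL/6 mouse pups. The 8 genes described are Nos3, Gucy1a2, Gucy1a3, Gucy1b3, Prkg1, Pde5a, Npr1 and Npr3, selected by name from 46165 gene records, of which 18853 had exon reads in at least 1 library. All 8 were detected in all 32 libraries and passed the filter on low counts at both ages. The study asked how interventions that usually serve as controls in studies of lung development affect lung gene expression. Lungs were taken on postnatal day 14 from pups given intraperitoneal saline daily from day 1 to day 13 (25 µl per g), from pups given the antagomiR control Scrambled 1 or Scrambled 2 (locked nucleic acid inhibitor probes, 10 mg/kg in nuclease-free water on days 1 and 3), from pups given nuclease-free water alone (10 µl per g, days 1 and 3), and from untreated pups. Lungs were taken on day 6 from pups given tamoxifen (0.4 mg in 25 µl Miglyol, an oil vehicle), Miglyol alone (25 µl) or saline (25 µl), in each case intraperitoneally on days 1 and 2. No genetic modification is named for any group. Each of the 8 groups had 4 libraries, and because nothing in the labels says that libraries came from separate animals, the p-values measure the spread between these libraries only.

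Nitric oxide made in endothelium by the synthase that Nos3 encodes diffuses to smooth muscle cells and pericytes, where it activates soluble guanylate cyclase, a heterodimer of an alpha subunit (Gucy1a3, or the less abundant Gucy1a2) and the beta subunit Gucy1b3. Cyclic GMP produced there activates the protein kinase encoded by Prkg1, which relaxes smooth muscle, and it is broken down by the phosphodiesterase Pde5a, the target of sildenafil. Natriuretic peptides raise cyclic GMP through the receptor Npr1, which is itself a guanylate cyclase, whereas Npr3 removes the peptides and has no cyclase domain. In the newborn lung this pathway is known for lowering pulmonary vascular resistance after birth.

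The promoters of the 3 cyclase subunits, Prkg1 and Pde5a are shown because these 5 genes were called lower in tamoxifen than in saline lungs. Those results follow below. Against the Miglyol vehicle, Prkg1 and Pde5a did not pass the test. The sequences are RefSeq windows of build GRCm38.p6, from 250 bases before the start to 50 bases after it, in the sense of the gene. Capitals mark a CCAAT box (CCAAT, or ATTGG where it lies on the other strand) and a GC box (GGGCGG, either strand). The windows are chr9:3532099-3532398 on the plus strand for Gucy1a2, chr3:82145601-82145900 on the minus strand for Gucy1a3 (Gucy1a1 in RefSeq), chr3:82074662-82074961 on the minus strand for Gucy1b3 (Gucy1b1 in RefSeq), chr19:31764984-31765283 on the minus strand for Prkg1 and chr3:122728908-122729207 on the plus strand for Pde5a. The starts used for Gucy1a2, Gucy1b3 and Pde5a are the gene starts of the deposited tables, whereas those used for Gucy1a3 and Prkg1 lie 227 and 271 bases inside the gene as tabled, so their windows lie largely within the tabled gene.
Gucy1a2: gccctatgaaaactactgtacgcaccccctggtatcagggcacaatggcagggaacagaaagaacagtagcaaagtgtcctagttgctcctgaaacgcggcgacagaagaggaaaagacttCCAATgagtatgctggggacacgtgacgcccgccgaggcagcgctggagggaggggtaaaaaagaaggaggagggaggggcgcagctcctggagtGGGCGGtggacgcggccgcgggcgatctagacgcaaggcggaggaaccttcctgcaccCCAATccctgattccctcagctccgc
Gucy1a3: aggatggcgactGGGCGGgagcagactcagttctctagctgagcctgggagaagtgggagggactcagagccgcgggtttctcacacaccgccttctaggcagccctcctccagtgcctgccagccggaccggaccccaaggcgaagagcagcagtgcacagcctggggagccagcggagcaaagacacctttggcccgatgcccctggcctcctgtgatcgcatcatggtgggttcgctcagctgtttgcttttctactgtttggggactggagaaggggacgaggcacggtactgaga
Gucy1b3: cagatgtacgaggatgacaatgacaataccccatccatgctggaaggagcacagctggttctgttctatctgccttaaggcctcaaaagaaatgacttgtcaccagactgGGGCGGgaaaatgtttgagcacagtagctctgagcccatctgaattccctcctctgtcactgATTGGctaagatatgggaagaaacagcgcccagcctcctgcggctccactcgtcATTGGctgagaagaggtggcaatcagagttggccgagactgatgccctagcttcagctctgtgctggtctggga
Prkg1: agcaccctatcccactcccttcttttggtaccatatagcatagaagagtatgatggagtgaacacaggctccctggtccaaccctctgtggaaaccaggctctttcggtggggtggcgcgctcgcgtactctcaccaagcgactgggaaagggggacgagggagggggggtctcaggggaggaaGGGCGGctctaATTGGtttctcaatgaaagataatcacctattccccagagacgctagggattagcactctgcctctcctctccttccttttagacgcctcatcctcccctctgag
Pde5a: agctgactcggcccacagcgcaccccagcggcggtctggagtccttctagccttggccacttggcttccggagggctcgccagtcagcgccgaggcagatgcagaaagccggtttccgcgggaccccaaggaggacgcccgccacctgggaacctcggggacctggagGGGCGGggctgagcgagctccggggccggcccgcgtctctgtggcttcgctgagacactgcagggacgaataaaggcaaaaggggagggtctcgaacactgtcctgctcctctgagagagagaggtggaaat
A GC box was found in each of these 5 windows, and 35.7% of all 32851 promoter windows held one. The window of Npr1, which was not called in tamoxifen lungs, held 2 GC boxes and 1 CCAAT box. The window of Npr3, also not called there, held 1 CCAAT box and no GC box. A GC box was therefore not particular to the genes that fell. Gucy1a3 and Prkg1 each have a second RefSeq window that is not shown. That of Gucy1a3 held none of the motifs searched, and that of Prkg1 held a GC box. The bases after the start were found in the transcript for the shown windows of Prkg1 and Pde5a and for both second windows. For the shown windows of Gucy1a2, Gucy1a3 and Gucy1b3 they were not found there. Among the 5 shown windows, CCAAT boxes were found in those of Gucy1a2 and Gucy1b3, 2 in each, and in that of Prkg1, with 1. Of all windows, 37.4% held at least 1. Neither a TATA box (TATAAA, either strand, in 13.6% of all windows) nor a CArG box (in 1.63%) was found in any window of the 7 genes of the set that matched by symbol or gene ID. GC content was 60% for Gucy1a2, 62.3% for Gucy1a3, 52.3% for Gucy1b3, 55.3% for Prkg1 and 66.3% for Pde5a, beside a median of 52.7% over all windows. A match of letters is a description of these windows and not evidence of a bound site.

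In the coordinates of the deposited tables, Gucy1a3 (gene ID 60596, chr3:82092427-82145877, minus strand) and Gucy1b3 (54195, chr3:82032004-82074711, minus strand) are neighbours, with 17715 bases between them. Pde5a (242202, chr3:122729158-122859374, plus strand) and Npr1 (18160, chr3:90450592-90465928, minus strand) lie elsewhere on the same chromosome. Gucy1a2 (234889) spans chr9:3532349-3905791 on the plus strand, Nos3 (18127) chr5:24364819-24384474 on the plus strand, Npr3 (18162) chr15:11839896-11907371 on the minus strand, and Prkg1 (19091) chr19:30564487-31765304 on the minus strand. The build is not given in the sources used here; 97.4% of the 43003 gene IDs shared with RefSeq started within 5 kb of their GRCm38.p6 position. The share of exon reads that mapped uniquely was between 97.4% (Nos3) and 100% for the 8 genes. All values cover whole gene spans and all exons, so isoforms were not separated.

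Exon reads summed to between 7918537 and 12443221 per library, and single genes of the set had between 226 (Gucy1a2) and 10521 (Pde5a) exon reads in a library. Lung markers were high throughout, with 7525 to 12771 CPM (reads scaled to library size) for the surfactant protein gene Sftpc. Water replicate 3 stood apart: its summed markers reached 120 CPM for adipose tissue, 317 CPM for skeletal muscle and 33.0 CPM for thymus, against at most 35.2 CPM for adipose tissue, 27 CPM for skeletal muscle and 18.0 CPM for thymus in the other libraries. Libraries also differed in the share of gene reads that fell in introns, which averaged 10.0 ± 1.04% in daily saline and 14.1 ± 1.42% in water lungs (SD, n = 4 each). The female transcript Xist exceeded 10 CPM in 2 daily saline, 2 Scrambled 1, 1 Scrambled 2, 0 water and 3 untreated libraries, and in 2 libraries of each day 6 group. Because these are whole lungs, fewer cells of a type and less RNA per cell cannot be told apart.

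In the authors' TPM values, which scale reads for transcript length and library size, the cyclase and its phosphodiesterase were the most abundant of the set. On day 14 the median over 20 libraries was 304 TPM for Gucy1a3, 275 TPM for Pde5a and 272 TPM for Gucy1b3. Npr1 followed with a median of 103 TPM, and Npr3, Nos3, Prkg1 and Gucy1a2 had medians of 24.4, 22.8, 20.2 and 11.6 TPM. On day 6 the medians over 12 libraries were 272 TPM for Gucy1a3, 245 TPM for Pde5a, 209 TPM for Gucy1b3, 91.7 TPM for Npr1, 38.9 TPM for Npr3, 23.2 TPM for Nos3, 16.9 TPM for Prkg1 and 7.03 TPM for Gucy1a2. Gucy1a2 therefore made up a small part of the alpha subunit transcripts, from 2.71% to 4.15% of their summed TPM on day 14 and from 2.01% to 3.68% on day 6. These shares depend on the exon lengths as tabled, 13815 bases for Gucy1a2 and 5450 bases for Gucy1a3. Without scaling for length, day 14 medians were 61.8 CPM for Gucy1a2 and 654 CPM for Gucy1a3.

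**Figure D1:**
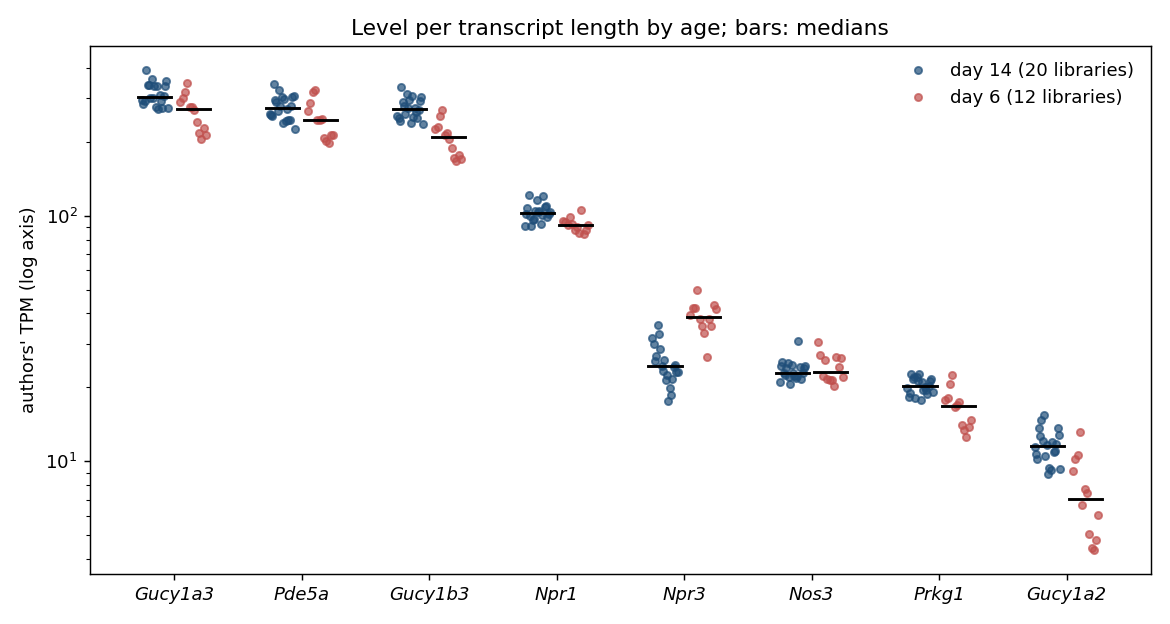
Authors' TPM (log axis) of the 8 genes, with 20 day 14 libraries left of 12 day 6 libraries for each gene and black bars at the medians. Gucy1a3, Pde5a and Gucy1b3 lie at or above 166 TPM in all 32 libraries, and Gucy1a2 lies lowest, with medians of 11.6 TPM on day 14 and 7.03 TPM on day 6.

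The other synthases were scarce or low. The neuronal synthase Nos1 reached at most 0.150 TPM on day 14 and 0.285 TPM on day 6. The inducible synthase Nos2 ranged from 9.48 to 12.8 TPM on day 14 and from 8.55 to 12.1 TPM on day 6. Transcripts of the natriuretic peptides themselves were near the limit of detection in lung, with medians of 1.44 TPM on day 14 and 1.02 TPM on day 6 for Nppa, 0 TPM at both ages for Nppb, and 0.257 TPM on day 14 and 0.594 TPM on day 6 for Nppc. Npr2, the receptor of the C-type peptide, had medians of 58.3 TPM on day 14 and 49.8 TPM on day 6.

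On day 6, tamoxifen lungs held less soluble guanylate cyclase, Prkg1 and Pde5a transcript than saline lungs. All 3 cyclase subunits, the kinase and the phosphodiesterase fell (5 of 8 genes, edgeR quasi-likelihood test, adjusted p under 0.05), while Nos3 and both natriuretic peptide receptors did not pass the test. Over all 14107 genes tested, 23.7% were called in this comparison and 12.3% were called lower. The median log2 fold change was −0.42 over the 8 genes and 0.01 over all genes. Levels that follow are exon reads in CPM after scaling between libraries, and log2 fold changes come from the same counts.

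Gucy1a2 had the largest difference of the set. It was at 24.5, 25.4, 26.1 and 34.2 CPM in the 4 tamoxifen libraries. In the 4 Miglyol libraries it was at 37.0, 42.1, 40.5 and 30.7 CPM, and in the 4 saline libraries at 49.0, 53.8, 54.8 and 66.9 CPM. All tamoxifen and all Miglyol libraries lay below all saline libraries, and only tamoxifen replicate 4 reached the range of the Miglyol lungs. Against saline the log2 fold change was −1.03 ± 0.12 for tamoxifen (SE, adjusted p = 5.23e-05), a level 51.1% lower.

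The main alpha subunit Gucy1a3 was at 471, 470, 486 and 474 CPM in tamoxifen lungs, at 606, 596, 578 and 576 CPM in Miglyol lungs and at 613, 627, 653 and 692 CPM in saline lungs. Its partner Gucy1b3 was at 223, 227, 227 and 227 CPM in tamoxifen lungs, at 279, 278, 263 and 270 CPM in Miglyol lungs and at 284, 285, 308 and 321 CPM in saline lungs. For both subunits the 3 groups did not overlap, with tamoxifen lowest and saline highest. Tamoxifen against saline gave log2 fold changes of −0.44 ± 0.06 for Gucy1a3 (SE, edgeR adjusted p = 5.81e-05) and −0.41 ± 0.06 for Gucy1b3 (adjusted p = 0.000118).

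Pde5a, which breaks down cyclic GMP, was at 629, 649, 658 and 683 CPM in tamoxifen lungs, at 770, 755, 762 and 713 CPM in Miglyol lungs and at 810, 857, 928 and 929 CPM in saline lungs. Prkg1, the kinase that cyclic GMP activates, was at 40.1, 39.8, 40.8 and 45.4 CPM in tamoxifen lungs, at 50.4, 50.3, 51.9 and 46.2 CPM in Miglyol lungs and at 52.1, 52.0, 58.2 and 62.0 CPM in saline lungs. Again no library of one group entered the range of another for either gene. The log2 fold changes for tamoxifen against saline were −0.43 ± 0.06 for Pde5a (SE, edgeR adjusted p = 0.000176) and −0.44 ± 0.07 for Prkg1 (adjusted p = 0.000724). All 5 genes were without overlap between tamoxifen and saline lungs, against 22.8% of all genes. The 5 calls were kept in every alternative run, including those that left out each library in turn.

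The synthase Nos3 averaged 41.7 ± 2.75 CPM in tamoxifen lungs and 41.6 ± 6.21 CPM in saline lungs (SD, n = 4 each), a log2 fold change of 0.00 ± 0.09 (SE, adjusted p = 0.979). Npr1 averaged 157 ± 14.0 CPM in tamoxifen lungs and 151 ± 4.98 CPM in saline lungs, with a log2 fold change of 0.06 ± 0.06 (adjusted p = 0.549). Npr3 averaged 129 ± 9.30 CPM in tamoxifen lungs and 133 ± 10.9 CPM in saline lungs, with a log2 fold change of −0.04 ± 0.08 (adjusted p = 0.777). For each of these 3 genes the groups overlapped.

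**Figure D2:**
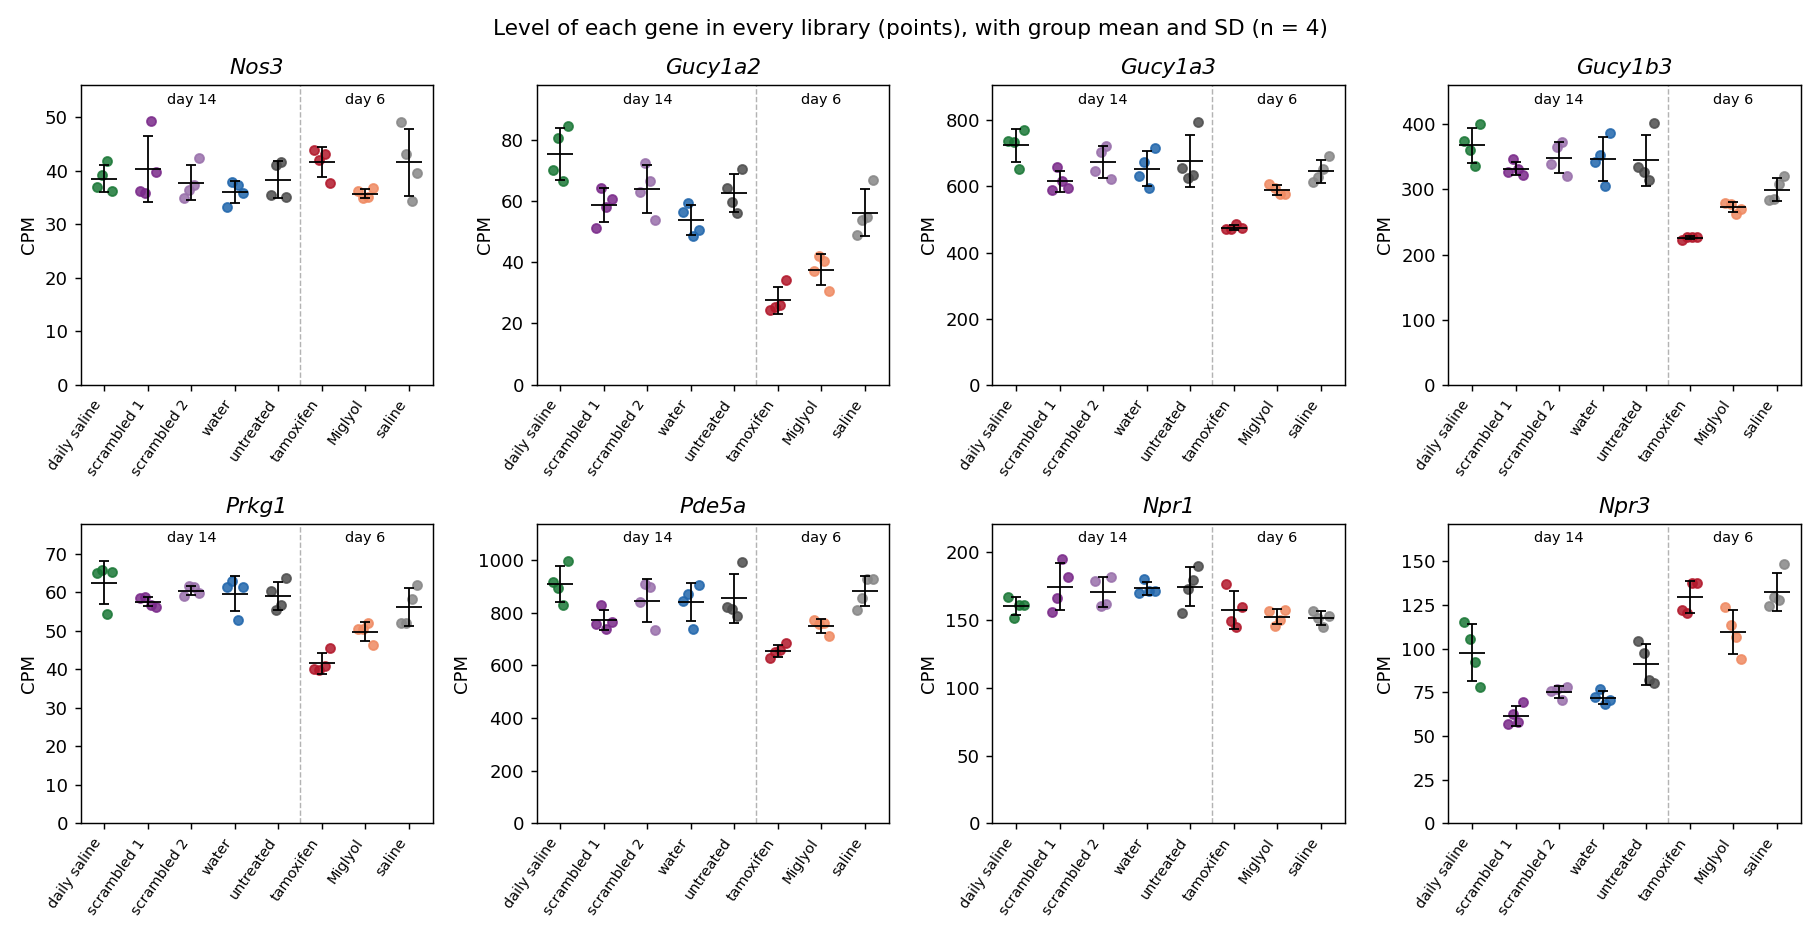
CPM of each gene in the 4 libraries of every group (points, scaled between libraries), with the group mean and SD as a black bar; day 14 groups stand left of the dashed line and day 6 groups right of it. In tamoxifen lungs all of Gucy1a3, Gucy1b3, Pde5a and Prkg1 lie below the Miglyol and saline lungs, and Npr3 is lowest in Scrambled 1 lungs, at 61.7 ± 5.70 CPM.

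Miglyol lungs also differed from saline lungs in 3 of the genes. Against saline, Miglyol lungs had less Gucy1a2 (log2 fold change −0.59 ± 0.12, SE, edgeR adjusted p = 0.0108), less Pde5a (−0.24 ± 0.06, adjusted p = 0.0233) and less of the clearance receptor Npr3 (−0.28 ± 0.08, adjusted p = 0.0351). In this comparison 10.6% of all genes were called and 7.29% were called lower, beside 3 of the 8. Gucy1a3 (−0.14 ± 0.06, adjusted p = 0.108), Gucy1b3 (−0.14 ± 0.06, adjusted p = 0.0997), Prkg1 (−0.18 ± 0.07, adjusted p = 0.111) and Nos3 (−0.22 ± 0.09, adjusted p = 0.110) did not pass the test, and Npr1 was at 0.01 ± 0.06 (adjusted p = 0.956). Npr3 was at 124, 113, 106 and 93.9 CPM in Miglyol lungs, against 124, 130, 128 and 149 CPM in saline lungs, so that the highest Miglyol library lay just under the lowest saline library. Groups did not overlap for 6 of the 8 genes, against 21.8% of all genes. The intronic share of reads averaged 13.1 ± 1.25% in Miglyol and 15.1 ± 0.898% in saline lungs (SD, n = 4 each), and with this share as a covariate none of the 3 calls was kept, with Gucy1a2 at −0.34 (adjusted p = 0.228). The Pde5a and Npr3 calls were each lost in 5 of 8 fits that left out 1 library, and both were lost without Miglyol replicate 3 or 4 and without saline replicate 3 or 4; Gucy1a2 was called in all 8.

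Both main cyclase subunits fell in tamoxifen lungs against their own vehicle. Against Miglyol, log2 fold changes were −0.31 ± 0.06 for Gucy1a3 (SE, edgeR adjusted p = 0.00347), −0.27 ± 0.06 for Gucy1b3 (adjusted p = 0.00857) and −0.44 ± 0.12 for Gucy1a2 (adjusted p = 0.0444). These 3 of 8 stand beside 5.68% of all genes called and 1.96% called lower. Prkg1 (−0.26 ± 0.07, adjusted p = 0.0511) and Pde5a (−0.19 ± 0.06, adjusted p = 0.0742) missed the threshold, although neither overlapped between the groups. In all, 5 of the 8 genes and 11.1% of all genes did not overlap. Gucy1a2 was not among these 5, whereas Nos3 was, with the higher levels in tamoxifen lungs. Its levels were 37.7 to 43.8 CPM in tamoxifen and 34.9 to 36.7 CPM in Miglyol lungs. Nos3 was at 0.22 ± 0.09 (adjusted p = 0.158), Npr3 at 0.24 ± 0.08 (adjusted p = 0.0862) and Npr1 at 0.05 ± 0.06 (adjusted p = 0.729). The Gucy1a2 call was lost with Xist as a covariate (adjusted p = 0.0583), in a fit of the 8 tamoxifen and Miglyol libraries alone (adjusted p = 0.0673) and in 6 of 8 fits that left out 1 library (without Miglyol replicate 1, 2 or 3, or tamoxifen replicate 1, 2 or 3), whereas without tamoxifen replicate 4 Prkg1 and Pde5a were called as well, for 5 in all. The Gucy1a3 and Gucy1b3 calls held in every alternative. The 3 day 6 comparisons share libraries, since saline, Miglyol and tamoxifen each enter 2 of them.

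Markers of the vascular cell types that carry this pathway differed between the same groups. Summed CPM of 8 pericyte markers was 655 to 710 in tamoxifen, 689 to 723 in Miglyol and 767 to 828 in saline lungs. For 8 endothelial markers it was 2704 to 2928 in tamoxifen, 2761 to 2890 in Miglyol and 2977 to 3153 in saline lungs, and for 8 smooth muscle markers 1625 to 2196 in tamoxifen, 1693 to 2015 in Miglyol and 1670 to 1849 in saline lungs. Of the pericyte markers, 3 fell and 1 rose in tamoxifen against saline lungs, of the endothelial markers 4 fell and 1 rose, and of the smooth muscle markers 1 rose. In Miglyol against saline lungs 3 pericyte, 2 endothelial and 1 smooth muscle marker fell, and none of the 3 lists had a called marker in tamoxifen against Miglyol lungs. Some epithelial markers rose. Summed CPM of the 5 lung markers, mostly epithelial, was 18662 to 21275 in tamoxifen, 16330 to 20281 in Miglyol and 14242 to 15475 in saline lungs. Scgb1a1, the club cell secretory protein, rose in tamoxifen lungs against saline (log2 fold change 1.01 ± 0.08, SE, edgeR adjusted p = 2.07e-06) and against Miglyol (0.69 ± 0.08, adjusted p = 0.000126). The surfactant gene Sftpb rose in tamoxifen against saline lungs (0.28 ± 0.08, adjusted p = 0.0166), and Scgb1a1 (0.32 ± 0.08, adjusted p = 0.0213) and Sftpc (0.32 ± 0.10, adjusted p = 0.0389) rose in Miglyol against saline lungs. The part that cell makeup had in the lower cyclase levels was not tested.

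Some genes around the members of the set were also called on day 6. Of a list of 57 further genes of nitric oxide and cyclic GMP biology, 44 were tested, and in tamoxifen against saline lungs 8 rose and 8 fell (36.4% of those tested, beside 23.7% of all genes). The 4 with the smallest p all fell: the cyclic GMP-inhibited phosphodiesterase Pde3a (log2 fold change −0.54 ± 0.07, SE, edgeR adjusted p = 8.18e-05), the calcium-activated potassium channel Kcnma1 (−0.93 ± 0.13, adjusted p = 0.000102), the G protein regulator Rgs2 (−0.73 ± 0.10, adjusted p = 0.000259), both of which the kinase acts on, and Ddah1 (−0.34 ± 0.07, adjusted p = 0.00281), which degrades an endogenous inhibitor of nitric oxide synthases. Against Miglyol, Rgs2 (−0.78 ± 0.10, adjusted p = 0.000432) and Kcnma1 (−0.71 ± 0.13, adjusted p = 0.00290) fell, and the arginase Arg2, which competes with the synthases for arginine, rose (0.83 ± 0.22, adjusted p = 0.0352). These 3 were 6.82% of the list, close to the 5.68% of all genes. In Miglyol against saline lungs 5 of the 44 were called, 1 higher and 4 lower (11.4%, also close to the 10.6% of all genes). They were led by Pde3a (−0.32 ± 0.07, adjusted p = 0.0141), Pde6d (0.32 ± 0.09, adjusted p = 0.0281), Nos1ap (−0.86 ± 0.24, adjusted p = 0.0289) and the myosin phosphatase subunit Ppp1r12a (−0.19 ± 0.06, adjusted p = 0.0400).

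On day 14, the set varied little among the 5 groups, and the differences that passed the test were in Gucy1a2 and Npr3. Daily saline lungs had more of both than water lungs (2 of 8 genes, beside 2.74% of all 14179 genes called and 1.04% called higher). Gucy1a2 was at 70.0, 80.7, 66.7 and 84.4 CPM in daily saline lungs, against 56.3, 59.4, 48.6 and 50.6 CPM in water lungs. The groups did not overlap, and the log2 fold change was 0.49 ± 0.09 (SE, edgeR adjusted p = 0.0130). Npr3 was at 115, 106, 92.2 and 77.8 CPM in daily saline lungs, against 72.4, 76.8, 68.1 and 70.4 CPM in water lungs. Here daily saline replicate 4 lay just above the highest water library, and the log2 fold change was 0.44 ± 0.10 (adjusted p = 0.0218).

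The other 6 genes did not pass the test between daily saline and water lungs: Gucy1a3 (0.15 ± 0.08), Pde5a (0.11 ± 0.08), Nos3 (0.09 ± 0.09), Gucy1b3 (0.08 ± 0.08), Prkg1 (0.07 ± 0.07) and Npr1 (−0.11 ± 0.07), as log2 fold changes with SE. Npr1, at 151 to 167 CPM in daily saline lungs and 170 to 180 CPM in water lungs, did not overlap between the groups, like Gucy1a2 and Npr3 and 11.3% of all genes. The Npr3 call was lost without daily saline replicate 1 or 2 and without water replicate 3 or 4 (adjusted p up to 0.0857), and the Gucy1a2 call without daily saline replicate 2 (adjusted p = 0.0576). With the intronic share of reads as a covariate, Gucy1a2 was at 0.66 (adjusted p = 0.0521) and Npr3 at 0.26 (adjusted p = 0.485), so neither was called. All 8 endothelial markers had log2 fold changes above 0 in this comparison and none was called; summed, they reached 3920 to 4228 CPM in daily saline and 3419 to 3812 CPM in water lungs, and their part in the result was not tested.

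Npr3, the clearance receptor, was lower in lungs given the antagomiR control Scrambled 1 than in untreated lungs. It was at 56.7, 62.5, 58.2 and 69.4 CPM in Scrambled 1 lungs, against 104, 97.4, 81.8 and 80.5 CPM in untreated lungs. The groups did not overlap, as for 5.08% of all genes. The log2 fold change was −0.56 ± 0.10 (SE, edgeR adjusted p = 0.0189), and this was the 1 call among the 8 genes, beside 0.303% of all genes called and 0.169% called lower. The call was lost without Scrambled 1 replicate 1 or 3 and without untreated replicate 1 or 2, with adjusted p up to 0.103. Replicates 1 and 2 of the untreated group were its highest libraries for this gene. Of the other comparisons involving Npr3, Scrambled 1 against water (−0.22 ± 0.10, adjusted p = 0.423), Scrambled 1 against Scrambled 2 (−0.28 ± 0.10, adjusted p = 0.305), Scrambled 2 against untreated (−0.27 ± 0.10, adjusted p = 0.629) and water against untreated (−0.34 ± 0.10, adjusted p = 0.319) did not pass the test. Npr3 did not overlap in 3 of these either, namely Scrambled 1 against Scrambled 2 (as for 5.1% of all genes), Scrambled 2 against untreated (3.16%) and water against untreated (4.19%).

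Ordered by group means on day 14, Npr3 ran from 61.7 ± 5.70 CPM in Scrambled 1 through 71.9 ± 3.72 CPM in water, 75.3 ± 3.31 CPM in Scrambled 2 and 91.0 ± 11.7 CPM in untreated to 97.7 ± 16.3 CPM in daily saline lungs (SD, n = 4 each). Neighbours in this order overlapped, apart from Scrambled 2 and untreated. Gucy1a2 ran from 53.7 ± 5.0 CPM in water through 58.6 ± 5.57 CPM in Scrambled 1, 62.7 ± 6.19 CPM in untreated and 64.0 ± 7.84 CPM in Scrambled 2 to 75.4 ± 8.43 CPM in daily saline lungs, and all neighbours overlapped. For the remaining 6 genes all neighbouring group means on day 14 had overlapping libraries. The lowest and highest means were 615 and 725 CPM for Gucy1a3, 332 and 368 CPM for Gucy1b3, 772 and 909 CPM for Pde5a and 57.5 and 62.5 CPM for Prkg1, in each case with Scrambled 1 lowest and daily saline highest. Nos3 group means lay between 36.1 CPM in water and 40.3 CPM in Scrambled 1 lungs, and those of Npr1 between 160 CPM in daily saline and 175 CPM in Scrambled 1 lungs.

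No gene of the set was called by edgeR in the other 6 comparisons on day 14, nor by DESeq2. These were daily saline against untreated (0.233% of all genes called), water against untreated (0.0494%), Scrambled 1 against water (0.12%), Scrambled 2 against water (0% called), Scrambled 1 against Scrambled 2 (0.205%) and Scrambled 2 against untreated (0%). At an unadjusted p under 0.05, 2 of the 8 passed in water against untreated lungs (beside 8.09% of all genes) and 1 in each of the other 5. Over all genes the share at that threshold was 9.24% in daily saline against untreated, 11.0% in Scrambled 1 against water, 5.32% in Scrambled 2 against water, 10.9% in Scrambled 1 against Scrambled 2 and 6.6% in Scrambled 2 against untreated lungs, and 1 of 8 genes is read as no more than that background. The largest of these log2 fold changes was that of Npr3 in water against untreated lungs, given above; Gucy1a2 was at 0.27 ± 0.09 in daily saline against untreated lungs (SE, adjusted p = 0.333) and at 0.25 ± 0.10 in Scrambled 2 against water lungs (adjusted p = 0.920). Comparisons on day 14 share their water or untreated libraries. Of the 45 further pathway genes tested at this age, 1 was called across the 8 comparisons, the cytochrome b5 reductase Cyb5r3, which keeps the haem of soluble guanylate cyclase reduced, in daily saline against water lungs (0.33 ± 0.07, adjusted p = 0.0184). That is 2.22% of the list in that comparison, beside 2.74% of all genes.

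**Figure D3:**
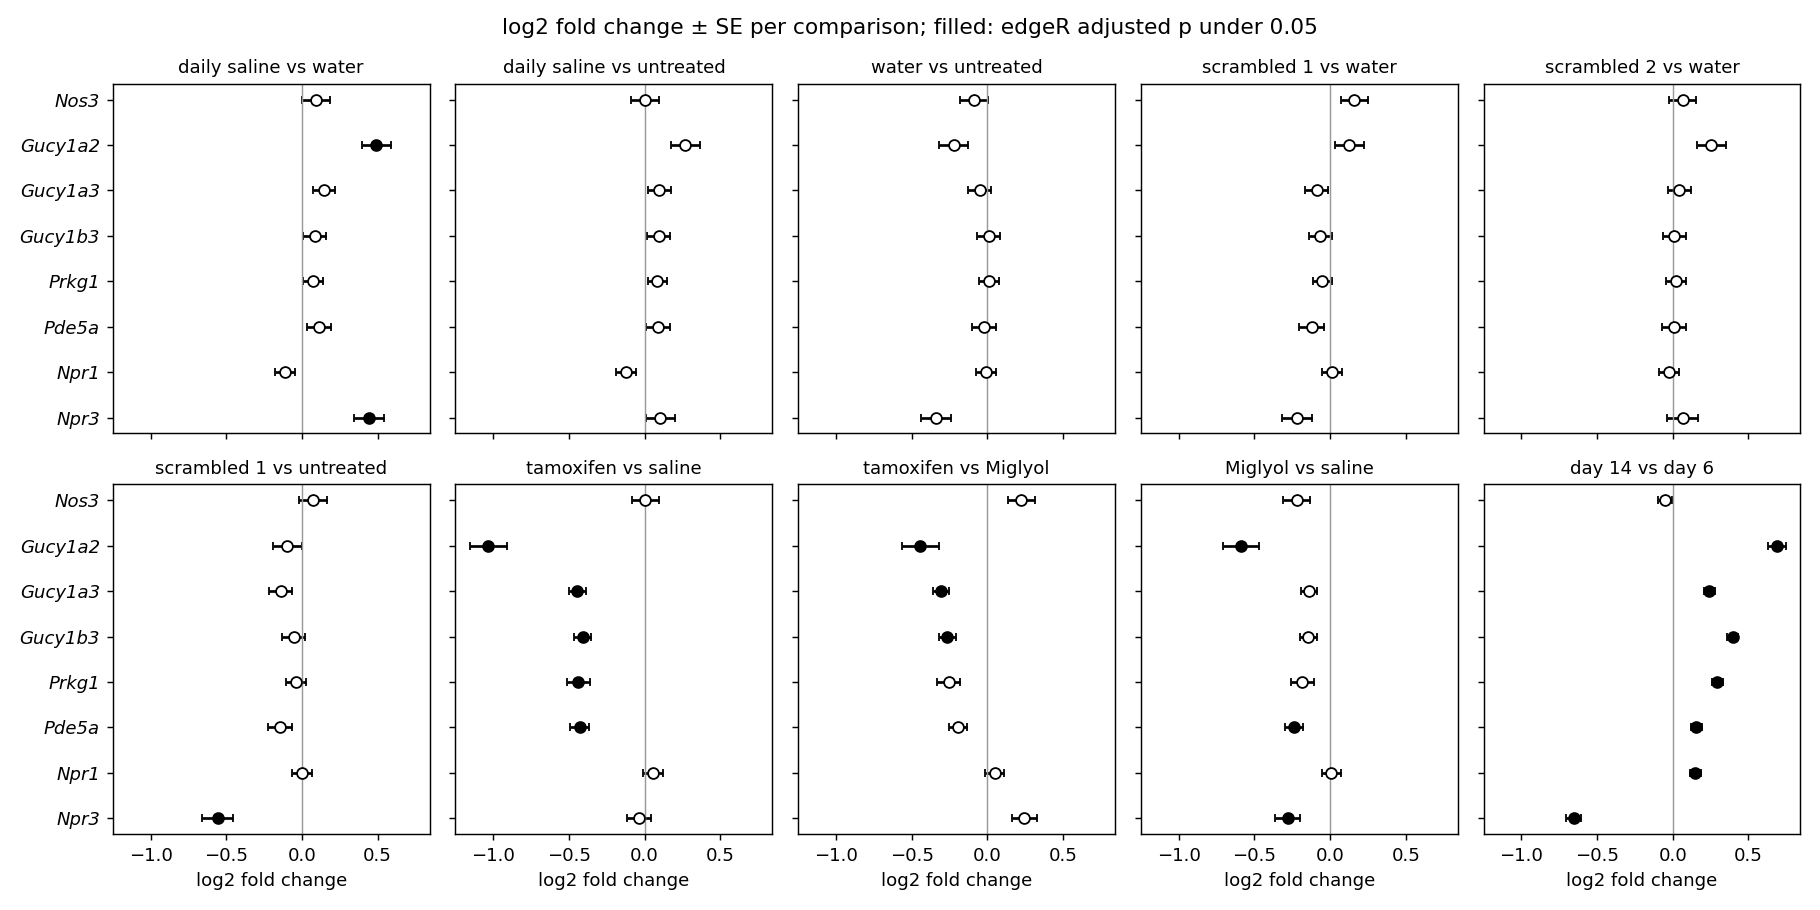
log2 fold change (x axis, with SE bars) of the 8 genes (rows) in 10 comparisons, each with the group named first over the group named second; filled points passed an edgeR adjusted p under 0.05. In tamoxifen against saline lungs 5 points are filled, all below 0, with Gucy1a2 at −1.03; in day 14 against day 6 lungs 7 are filled, with Npr3 at −0.65 and the others above 0.

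Most of the set differed between the ages, as did most of all genes tested. Over 20 day 14 and 12 day 6 libraries, Gucy1a2, Gucy1b3, Prkg1, Gucy1a3, Pde5a and Npr1 rose on day 14 and Npr3 fell, so that 7 of 8 passed the edgeR test, beside 61.4% of 14406 genes called, 30.0% higher and 31.3% lower. Age cannot be told apart here from the treatments, which differ between the ages, or from the anaesthetic used, pentobarbital on day 6 and isoflurane on day 14. For Npr3 the levels ran from 56.7 to 115 CPM with a median of 76.7 CPM on day 14, and from 93.9 to 149 CPM with a median of 124 CPM on day 6 (log2 fold change −0.65 ± 0.05, SE, adjusted p = 2.10e-13). Gucy1a2 ran from 48.6 to 84.4 CPM with a median of 61.8 CPM on day 14, and from 24.5 to 66.9 CPM with a median of 38.7 CPM on day 6 (0.69 ± 0.06, adjusted p = 1.00e-11). Both pairs of ranges overlapped, as did those of the other genes, and 9.45% of all genes had ages that did not overlap.

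On the log2 scale Gucy1b3 rose by 0.40 ± 0.04 (SE; edgeR adjusted p = 1.02e-11), Prkg1 by 0.29 ± 0.04 (adjusted p = 7.46e-09), Gucy1a3 by 0.24 ± 0.04 (adjusted p = 3.57e-07), Pde5a by 0.16 ± 0.04 (adjusted p = 0.000637) and Npr1 by 0.15 ± 0.03 (adjusted p = 0.000256). Nos3 averaged 38.2 ± 3.66 CPM on day 14 and 39.7 ± 4.60 CPM on day 6 (SD, n = 20 and n = 12) and was not called (−0.05 ± 0.05, adjusted p = 0.366). The 4 daily saline libraries of day 14 were also set against the 4 saline libraries of day 6 alone. Here 4 of the 8 were called, a share close to the 46.5% of the 13792 genes tested there. Gucy1b3 (0.30, adjusted p = 0.000214), Gucy1a2 (0.42, adjusted p = 0.00156) and Gucy1a3 (0.17, adjusted p = 0.0181) were higher on day 14 and Npr3 (−0.44, adjusted p = 0.00856) lower, and Prkg1 (0.16, adjusted p = 0.0826), Npr1 (0.09, adjusted p = 0.171) and Pde5a (0.05, adjusted p = 0.536) missed the threshold. All 8 endothelial markers rose on day 14 (median log2 fold change 0.46), 4 of 8 pericyte markers rose, 2 of 8 smooth muscle markers rose and 4 fell, and 6 of 7 cardiomyocyte markers fell; their part in the result was not tested.

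Ratios between transcripts of the set were also compared across ages and groups. The ratio of Gucy1a3 to Gucy1b3 in TPM lay between 1.08 and 1.22 on day 14 and between 1.23 and 1.31 on day 6, without overlap of the ages. Pde5a to Gucy1b3 lay between 0.924 and 1.04 on day 14 and between 1.10 and 1.25 on day 6, again without overlap. Npr3 to Npr1 lay between 0.156 and 0.366 on day 14 and between 0.312 and 0.509 on day 6, with Scrambled 1 lungs lowest at 0.156 to 0.200. In tamoxifen lungs Gucy1a3 to Gucy1b3 was 1.25 ± 0.0181, against 1.29 ± 0.0180 in Miglyol and 1.29 ± 0.0202 in saline lungs (SD, n = 4 each). These ratios are given as descriptions with no test. How often ratios of other gene pairs separate the ages was not computed.

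In the further pathway list, 29 of 45 genes were called between the ages (64.4%, beside 61.4% of all genes), 18 higher and 11 lower on day 14. The 4 with the smallest p were Nostrin, a protein that traffics the endothelial synthase (0.65 ± 0.03, edgeR adjusted p = 6.75e-19), Pde3a (0.69 ± 0.04, adjusted p = 5.19e-18), the caveolin Cav1, which binds that synthase (0.50 ± 0.03, adjusted p = 4.84e-16), and Kcnma1 (−1.10 ± 0.08, adjusted p = 2.09e-14), as log2 fold changes with SE. Only 3.35% of Cav1 exon reads mapped uniquely, so its value is uncertain. Nos2 was not called (0.11 ± 0.05, adjusted p = 0.0611), Npr2 rose (0.22 ± 0.04, adjusted p = 2.29e-06), and Nppa was called on few reads (1.22 ± 0.53, adjusted p = 0.0490).

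Replicate libraries of the same group varied together across the cyclase genes. After subtracting each group's mean from log2 CPM, Gucy1a3 and Gucy1b3 correlated over 32 libraries with Pearson's r = 0.955 and Spearman's rho = 0.931, and both permutation p-values were 1e-05 (100000 permutations within groups, the smallest they can give; adjusted over 28 pairs, 9.33e-05 for r and 0.00014 for rho). Leaving out the 2 libraries farthest from the median of Gucy1a3 gave r = 0.933, and within ages r was 0.960 over 20 day 14 libraries and 0.924 over 12 day 6 libraries. Gucy1b3 and Pde5a gave r = 0.924 and rho = 0.887 (permutation p = 2e-05 for each, adjusted 9.33e-05 and 0.00014), with r = 0.889 without the 2 farthest libraries. Gucy1a3 and Pde5a gave r = 0.902 and rho = 0.859 (permutation p = 1e-05 for each, adjusted 9.33e-05 and 0.00014), with r = 0.872 without the 2 farthest. In all, 14 of the 28 pairs had an adjusted permutation p under 0.05 for r. The share among pairs of all genes was not computed, so this count is not read as particular to the set.

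Nos3 correlated negatively with the kinase, the phosphodiesterase and the subunits Gucy1a2 and Gucy1b3. With Pde5a it gave r = −0.637 and rho = −0.692 (permutation p = 0.0002 and 0.00014, adjusted 0.000622 and 0.00049), r = −0.635 without the 2 libraries farthest from the Nos3 median, −0.593 on day 14 and −0.859 on day 6. With Prkg1 it gave r = −0.564 and rho = −0.620 (permutation p = 0.00103 and 0.00069, adjusted 0.00259 and 0.00191), and r = −0.586 without the 2 farthest. Values of r were −0.475 with Gucy1a2 and −0.464 with Gucy1b3 (permutation p adjusted 0.0239 and 0.0187). For Gucy1a3 (r = −0.403, permutation p adjusted 0.0696) and Npr1 (r = 0.456, adjusted 0.0608) the threshold was missed. Npr3 gave r = −0.096 (adjusted 0.747). Genes measured in the same library share its depth and composition, which these coefficients include.

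**Figure D4:**
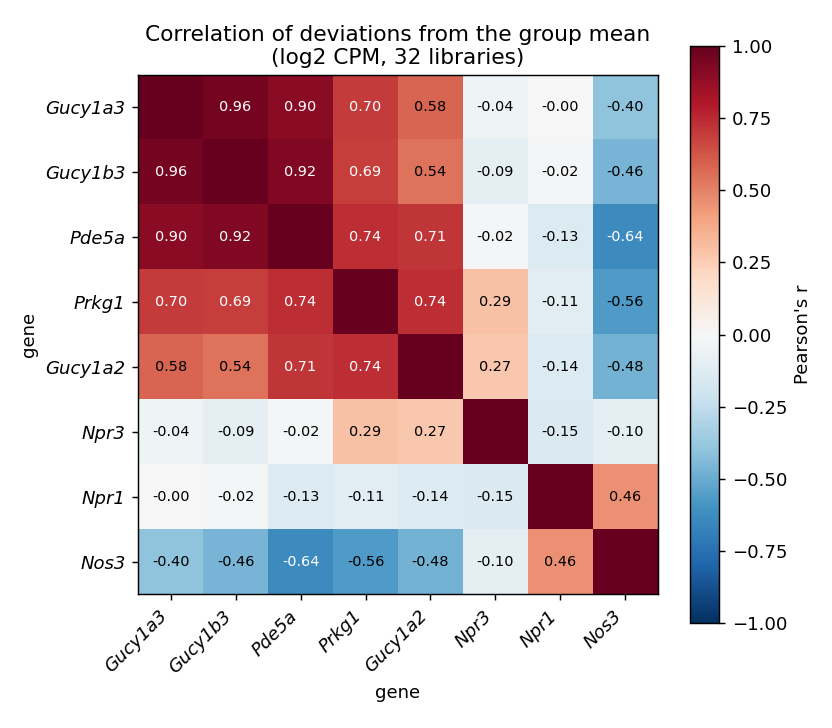
Pearson's r between pairs of the 8 genes over 32 libraries, after subtracting each group's mean from log2 CPM (red above 0, blue below 0). Gucy1a3, Gucy1b3 and Pde5a form a block with r from 0.902 to 0.955, and Nos3 has r = −0.637 with Pde5a.

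The genes whose pattern across the 32 libraries was most like each member, after subtracting each age's mean, are given as a description. Among 9783 candidate genes these were Pcdh18 (r = 0.950), Gpr126 (0.913) and Fermt2 (0.888) for Gucy1a3, Pcdh18 (0.942), Gpr126 (0.883) and Naalad2 (0.867) for Gucy1b3, and Gpr126 (0.934), Pcdh18 (0.928) and Cald1 (0.925) for Pde5a. Pcdh18 encodes a protocadherin, Gpr126 an adhesion receptor and Cald1 the actin-binding protein caldesmon. For Gucy1a2 they were Ptpn4 (0.946), Pura (0.931) and Pde3a (0.910), and for Prkg1 Pde3a (0.897), Mid2 (0.891) and Casc4 (0.884). Likeness was weaker for Nos3, with Git1 (0.771), Adam15 (0.729) and Gatad2a (0.717), for Npr3, with Prss35 (0.761), Itga6 (0.758) and Hapln1 (0.727), and for Npr1, with Ezh1 (0.710), Gpsm1 (0.689) and Mapt (0.686).

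Reads in introns gave a second view of part of the set. Over all libraries 64.7% of the reads in the Prkg1 gene were intronic, more than in 98.6% of the 12612 genes with at least 1000 exon reads, whose median was 14.2%. In intron reads on the CPM scale, Prkg1 ranged from 102 to 158 in Scrambled 1 lungs, from 83.5 to 106 in Scrambled 2, from 87.4 to 119 in water and from 94.4 to 113 in untreated lungs. Its exon level was 56.2 to 58.7 CPM in Scrambled 1, 58.9 to 61.5 CPM in Scrambled 2, 52.8 to 62.8 CPM in water and 55.4 to 63.6 CPM in untreated lungs. In daily saline lungs its intron reads ranged from 82.2 to 105 on that scale and its exon level from 54.2 to 65.6 CPM. For Gucy1a2, 1.65% of exon reads crossed a splice junction, against a median of 21.7% over the same genes, and 4.89% of them had a lower share. On day 6 its intron reads, on the CPM scale, were 3.64 to 7.81 in tamoxifen, 4.97 to 7.38 in Miglyol and 6.37 to 7.65 in saline lungs. These ranges overlapped although the exon levels of tamoxifen and saline lungs did not. Over all 32 libraries Gucy1a2 had 1751 intron reads. For Pde5a the intron reads on that scale were 29.1 to 49.6 in tamoxifen, 36.3 to 58.3 in Miglyol and 66.8 to 87.9 in saline lungs. For Gucy1a3 they were 24.7 to 41.1 in tamoxifen, 29.0 to 47.0 in Miglyol and 55.8 to 76.6 in saline lungs. For Gucy1b3 they were 20.8 to 26.6, 19.1 to 26.5 and 34.3 to 43.6 in the same order. For both subunits the intron ranges of tamoxifen and Miglyol lungs overlapped, although the exon levels did not. Prkg1 differed from these: its day 6 intron reads were 73.6 to 96.8 in tamoxifen, 98.3 to 110 in Miglyol and 94.5 to 108 in saline lungs. Its tamoxifen range lay below that of Miglyol and overlapped that of saline lungs. The intronic share of all gene reads was itself 13.3 ± 1.33% in tamoxifen, 13.1 ± 1.25% in Miglyol and 15.1 ± 0.898% in saline lungs (SD, n = 4 each). No test was run on intron reads.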

How the data were processed

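Total RNA of whole lungs was sequenced in 32 TruSeq Stranded mRNA libraries, per the labels' protocols. The tool bcl2fastq 2.0 is named in the submitters' processing notes. Aligner, build and strand setting: not given in the sources used here. Deposited tables hold, per gene, exon, unique exon, intron and total read counts, and TPM values that the authors computed. Total exon read counts were tested as deposited with edgeR 4.0.16 (R 4.3.3; TMM scaling, filterByExpr, robust quasi-likelihood F test), 1 fit per age and 1 over all libraries for age, with Benjamini-Hochberg adjustment over all genes tested; a call is an adjusted p under 0.05, and SE is the log2 fold change divided by the root of F. CPM values are exon counts over TMM-scaled library sizes. Scripts were tested on simulated data. DESeq2 1.42.0, RLE scaling, no filter, unique exon reads, total gene reads, other sets of libraries, covariates (Xist, intronic share), a replicate block and leaving out each library were the alternatives. Correlations used log2 CPM with a prior count of 2 and permutation within groups. All 8 genes are named throughout; of the further list, up to 4 called genes with the smallest p per comparison, the natriuretic peptides, the other synthases and Npr2. The 3 most similar genes per member were taken among genes of at least 5 CPM and at least 90% unique reads. The members and lists were chosen with earlier results of these data known. None of the 48 pairs of libraries within a group agreed within sampling noise, over genes with at least 20 reads in the pair.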

Additional observations from a re-analysis of the deposited data

Results flagged for a closer look

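In each of 64 groups of 4 libraries (8 genes in 8 groups), the gap between the highest or lowest library and its neighbour was compared with the range of the group, and 4 groups exceeded Dixon's 95% critical value; chance gives about 1 in 20. Gucy1a2 was at 34.2 CPM in tamoxifen replicate 4, above 24.5 to 26.1 CPM in the other 3 tamoxifen libraries. Gucy1b3 was at 223 CPM in tamoxifen replicate 1, below 226.8 to 227.1 CPM in the others, a group with a very narrow range. Prkg1 was at 54.2 CPM in daily saline replicate 3, below 64.9 to 65.6 CPM in the others, and at 52.8 CPM in water replicate 3, below 61.3 to 62.8 CPM in the others. Water replicate 3 is also the library with the highest adipose, skeletal muscle and thymus markers; the part of these in the Prkg1 value was not tested.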

How the results depend on the processing

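Of the 21 called pairs of gene and comparison, the direction was the same in all 539 alternative values and the call was kept in 501 of them and lost in 38; among the 75 pairs not called, 16 of 1373 alternative values passed the threshold, and none of the 99 that changed sign did. With a covariate for the intronic share, 0 genes of the set were called in daily saline against water and in Miglyol against saline lungs, and 6 in tamoxifen against Miglyol lungs. DESeq2 called 5 in Miglyol against saline and 5 in tamoxifen against Miglyol lungs. The 8 saline libraries alone gave 4 between the ages. Leaving out 1 library gave 0 to 2 in daily saline against water (0 without daily saline replicate 2, 1 without daily saline replicate 1 or water replicate 3 or 4), 0 to 1 in Scrambled 1 against untreated (0 without Scrambled 1 replicate 1 or 3, or untreated replicate 1 or 2), 1 to 3 in Miglyol against saline (1 without Miglyol replicate 3 or 4, or saline replicate 3 or 4) and 2 to 5 in tamoxifen against Miglyol lungs (5 without tamoxifen replicate 4). The cause was not tested in any of these cases. Over all genes, the intronic share covariate gave 13 calls in daily saline against water lungs, against 389 without it, 2 in Miglyol against saline lungs, against 1498, and 1268 in tamoxifen against Miglyol lungs, against 801. DESeq2 called 87 in Scrambled 1 against water lungs, against 17 by edgeR, and 5 in Scrambled 2 against water lungs, against 0. Exon reads per library were fewest for Gucy1a2 (226 to 839) and Nos3 (278 to 486).

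Same-numbered libraries did not all deviate together in any comparison. Correlations lay between −0.345 and 0.472, and in 0 of 11 comparisons did every pair exceed 0.1. Some single pairs did correlate, the highest being replicate 4 of water and untreated lungs. Pairing of only some libraries was not tested. With the replicate number as a block, 1 gene was called in Miglyol against saline lungs (461 over all genes, against 1498 without the block) and 2 in tamoxifen against Miglyol lungs, where Gucy1a2 was lost (adjusted p = 0.0594), and the counts in the other 10 comparisons were the same as without it.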
